A study of Mus musculus with 99 samples.

Results

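H3K27me3, the trimethylation of histone H3 that PRC2 deposits, was mapped by ChIP-seq in mouse embryonic stem cells (ESCs) that still express the PRC2.1 subunit MTF2. The 4 libraries, of 99 samples in the series, were selected because their labels give H3K27me3 as the antibody and no MTF2 knockout (KO). Each contributed 1 peak list, with 18245 peaks in Parental -OHT, 14283 in Parental +OHT, 19761 in RING1B WT +OHT and 18909 in RING1B I53S +OHT cells. All 4 groups derive from 1 ESC line that lacks RING1A, carries floxed Ring1b (Rnf2) alleles and expresses a tamoxifen-inducible Cre from ROSA26. Parental cells received no transgene, whereas the RING1B WT and RING1B I53S lines stably express FLAG-HA-tagged RING1B, wild type or with the I53S substitution that removes its ubiquitin ligase activity. The floxed alleles were deleted by 4-hydroxytamoxifen (OHT, 0.5 µM over 72 h), and -OHT cells received ethanol. Parental +OHT cells therefore lacked both RING1 proteins, and RING1B I53S +OHT cells kept a RING1B protein without catalytic activity. The series holds no H3K27me3 library of the RING1B WT or I53S line without OHT. Differences between these lines and Parental -OHT cells therefore cannot be split into an effect of the line and an effect of OHT. With 1 library per condition, no test between conditions was possible, and the intervals given for shares of peaks are 95% Wilson intervals that cover counting error only and treat peaks as independent.

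PRC2 is a histone methyltransferase built around EZH1 or EZH2, EED and SUZ12. In ESCs it accumulates at CpG islands of silent developmental genes, where the Polycomb-like subunit MTF2 favours unmethylated CpG-rich DNA and JARID2 recognises H2AK119ub1, the mono-ubiquitination that RING1A and RING1B place on histone H2A. CBX proteins of canonical PRC1 bind H3K27me3 in turn, so that both marks commonly occupy the same domains.

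Peaks were first sorted by the lists in which they were found, and 1 peak of each main class shows what these regions look like. A class is defined by presence or absence of an overlapping peak (at least 1 bp) in the other lists. Peaks on chromosomes 11, 18, X and Y were left out of this choice. Each example is the highest-scoring remaining peak of its class whose central 300 bp lie outside exons and hold the class's median number of CpG dinucleotides. CG is written in capitals. Sequences are from GRCm38, on the + strand.

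The first lies at chr2:118744379-118744678, in a peak whose nearer edge is 354 bp from the start of Inafm2. This peak was found in all 4 lists. Its scores were 55.6 in Parental -OHT, 14.2 in Parental +OHT, 31.1 in RING1B WT and 10.3 in RING1B I53S cells. Scores are -log10 p-values, and every listed peak exceeds 10. The second lies at chr17:30902747-30903046 in an intron of Glp1r, the GLP-1 receptor gene, and was listed in Parental -OHT (43.6) and RING1B WT cells (14.9) but in neither Parental +OHT nor RING1B I53S cells. The third lies at chr6:102563238-102563537 in an intron of Cntn3, in a peak whose nearer edge is 7.98 kb from the start of that gene. It was absent from the RING1B I53S list alone. Scores were 38.7 in Parental -OHT, 10.2 in Parental +OHT and 26.9 in RING1B WT cells. The fourth lies at chr2:155953025-155953324 between genes, in a peak whose nearer edge is 2561 bp from the start of Cep250. It was listed in Parental +OHT (13.4) and RING1B I53S cells (22.6) only. Another lies at chr6:127548459-127548758 between genes, in a peak whose nearer edge is 9.03 kb from the start of Cracr2a. It was listed in RING1B I53S cells only, with a score of 25.8. CG dinucleotides number 4 in each of the first and second windows, 6 in the third and 2 in each of the last pair.
In all lists: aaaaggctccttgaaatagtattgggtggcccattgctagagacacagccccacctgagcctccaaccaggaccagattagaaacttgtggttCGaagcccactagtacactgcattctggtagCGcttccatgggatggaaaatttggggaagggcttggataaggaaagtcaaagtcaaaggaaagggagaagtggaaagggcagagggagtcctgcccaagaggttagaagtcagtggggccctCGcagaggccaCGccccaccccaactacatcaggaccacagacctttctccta
Absent without active RING1B: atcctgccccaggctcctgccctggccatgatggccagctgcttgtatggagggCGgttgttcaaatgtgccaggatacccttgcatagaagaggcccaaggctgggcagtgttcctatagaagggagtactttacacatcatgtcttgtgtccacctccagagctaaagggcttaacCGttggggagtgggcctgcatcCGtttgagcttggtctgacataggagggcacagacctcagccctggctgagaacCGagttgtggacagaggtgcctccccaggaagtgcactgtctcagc
Absent in RING1B I53S cells: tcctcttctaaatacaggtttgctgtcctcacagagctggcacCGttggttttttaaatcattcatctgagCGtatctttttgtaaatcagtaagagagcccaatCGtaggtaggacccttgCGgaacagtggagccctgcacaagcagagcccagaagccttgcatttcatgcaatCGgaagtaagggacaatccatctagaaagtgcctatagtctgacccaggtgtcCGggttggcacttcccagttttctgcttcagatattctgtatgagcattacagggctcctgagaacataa
New without active RING1B: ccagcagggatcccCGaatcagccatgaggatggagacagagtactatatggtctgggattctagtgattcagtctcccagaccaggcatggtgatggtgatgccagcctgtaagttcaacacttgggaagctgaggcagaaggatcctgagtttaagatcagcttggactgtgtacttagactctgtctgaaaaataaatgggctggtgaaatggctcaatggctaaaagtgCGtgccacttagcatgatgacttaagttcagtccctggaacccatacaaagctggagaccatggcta
RING1B I53S cells only: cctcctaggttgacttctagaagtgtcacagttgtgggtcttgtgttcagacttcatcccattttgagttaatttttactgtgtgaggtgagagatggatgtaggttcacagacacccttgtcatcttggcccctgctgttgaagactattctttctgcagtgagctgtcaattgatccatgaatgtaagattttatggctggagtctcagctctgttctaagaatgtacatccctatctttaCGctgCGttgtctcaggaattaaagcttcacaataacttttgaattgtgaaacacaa

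H3K27me3 peaks covered less of the genome when RING1B was deleted or catalytically inactive. Peaks spanned 41.8 Mb in Parental -OHT and 43.3 Mb in RING1B WT +OHT cells, against 26.01 Mb in Parental +OHT and 32.1 Mb in RING1B I53S +OHT cells, or 1.53%, 1.59%, 0.954% and 1.18% of the genome. The number of peaks did not follow the covered length. RING1B I53S cells listed more peaks than Parental -OHT cells, yet 7047 of them (37.3%) were narrower than 1 kb, whereas Parental -OHT cells had 5343 (29.3%). Peaks of at least 4 kb numbered 2626 in Parental -OHT and 2495 in RING1B WT cells, and 1185 in Parental +OHT and 1189 in RING1B I53S cells. Peaks of at least 8 kb numbered 507 and 489 in the first pair and 134 and 138 in the second. Median widths were 1569 bp and 1497 bp in Parental -OHT and RING1B WT cells, and 1328 bp and 1279 bp in Parental +OHT and RING1B I53S cells. The widest peak measured 64.4 kb in Parental -OHT and in RING1B WT cells, 31.6 kb in Parental +OHT and 28.3 kb in RING1B I53S cells. Broad peaks therefore separated the 2 conditions with active RING1B from the 2 without, while the total number of peaks did not.

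Scores fell along with widths. Median scores were 14.6 in Parental -OHT, 14.2 in RING1B WT, 13.3 in Parental +OHT and 12.9 in RING1B I53S cells. A score of 20 or more was reached by 4978, 4887, 2521 and 2388 peaks, respectively. A score depends on sequencing depth as well as on enrichment. The depth of the ChIP libraries is unknown from the lists, which do not carry the Drosophila spike-in scaling either, so depth and enrichment cannot be told apart in these numbers.

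**Figure D1:**
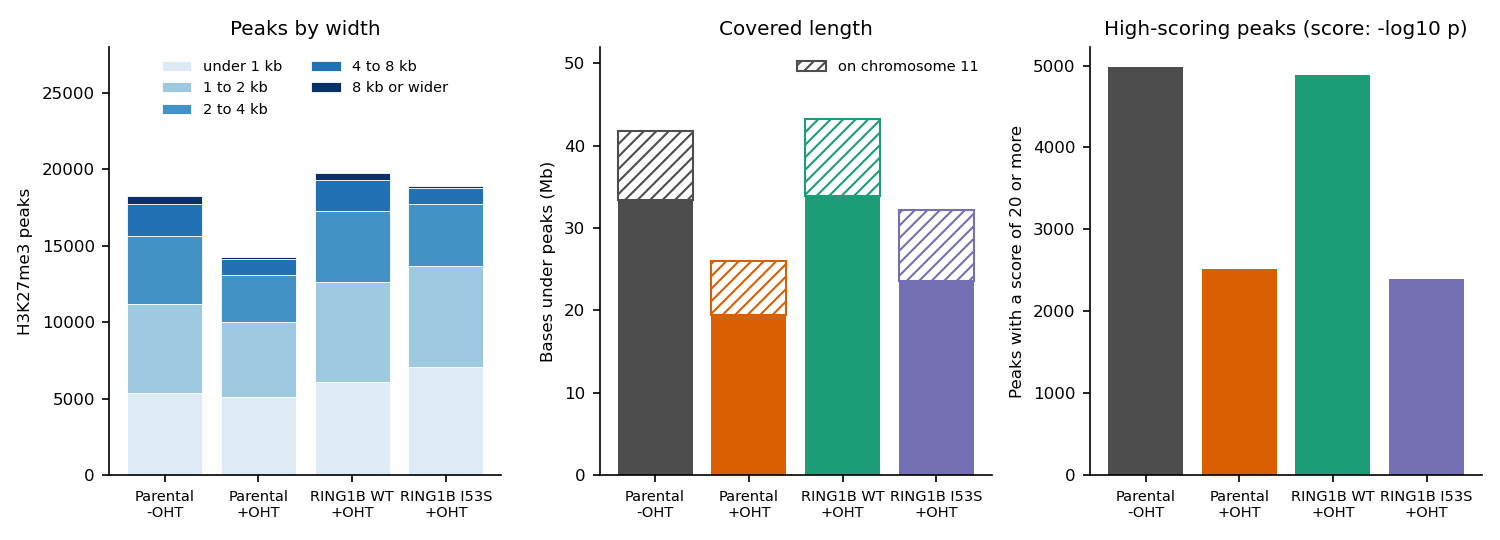
H3K27me3 peaks in the 4 libraries, 1 per condition. Left, number of peaks by width class. Middle, bases under peaks in Mb, with the hatched part on chromosome 11. Right, number of peaks with a score (-log10 p) of at least 20, which was 4978 and 4887 in Parental -OHT and RING1B WT +OHT cells and 2521 and 2388 in Parental +OHT and RING1B I53S +OHT cells.

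One chromosome stood apart in every list. Chromosome 11 held 18.1% of peaks in Parental -OHT, 22.0% in Parental +OHT, 19.5% in RING1B WT and 21.7% in RING1B I53S cells, although it makes up 4.48% of the genome and 5.68% of promoter bases. That is 25.8 to 33.7 peaks per Mb, 4.42 to 6.09 times the median of the other autosomes. The same chromosome also held more than its share in lists of other antibodies, up to 82.6% of the 690 RING1B peaks of Parental +OHT cells, in which RING1B was deleted. What sets this excess was not tested, and several results below are also given without chromosome 11. Without it, peaks covered 33.4, 19.4, 33.9 and 23.6 Mb in Parental -OHT, Parental +OHT, RING1B WT and RING1B I53S cells, the same order. On the X chromosome, 140 peaks were listed in Parental -OHT, 94 in RING1B WT, 23 in Parental +OHT and 9 in RING1B I53S cells. RING1B I53S cells also had the densest chromosome 6, with 11.1 peaks per Mb against 7.41 in Parental -OHT, 6.58 in Parental +OHT and 8.43 in RING1B WT cells.

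Most H3K27me3 peaks of Parental -OHT cells were found again in RING1B WT cells, and a minority without active RING1B. RING1B WT cells overlapped 69.1% of the 18245 peaks (interval 68.4 to 69.7%), Parental +OHT cells 40.8% (40.1 to 41.5%) and RING1B I53S cells 34.996% (34.3 to 35.7%). Without chromosome 11 these shares were 67.7%, 38.5% and 31.2%. In bases, 73.1%, 40.2% and 31.4% of the Parental -OHT peak length remained under a peak. Read in the other direction, 64.4% of RING1B WT peaks, 58.6% of Parental +OHT peaks and 37.8% of RING1B I53S peaks overlapped a Parental -OHT peak. RING1B I53S peaks coincided more often with RING1B WT peaks (52.2%) and Parental +OHT peaks (49.2%) than with those of Parental -OHT cells.

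Width separated the peaks that remained from those that did not. Of Parental -OHT peaks under 1 kb, 41.0% were found in RING1B WT, 18.96% in Parental +OHT and 21.4% in RING1B I53S cells. Between 2 and 4 kb the shares were 89.2%, 52.7% and 39.8%, and between 4 and 8 kb they were 99.4%, 81.5% and 67.9%. Of the 507 peaks of at least 8 kb, all 507 were found in RING1B WT, 488 (96.3%) in Parental +OHT and 471 (92.9%) in RING1B I53S cells. Narrow peaks are also those with scores nearest the threshold (median 11.8 under 1 kb and 37.6 at 8 kb or more in Parental -OHT cells), and the part of the threshold in this gradient was not tested.

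Broad domains remained detectable but shrank. Of the 2626 Parental -OHT peaks of at least 4 kb, RING1B WT peaks covered a median of 93.1% (quartiles 83.0 and 99.1%), Parental +OHT peaks 59.5% (25.6 and 81.4%) and RING1B I53S peaks 38.2% (0 and 67.5%). More than 90% of the domain stayed covered in 1567 of them in RING1B WT, 400 in Parental +OHT and 206 in RING1B I53S cells. No peak was left in 13, 411 and 716, respectively. Several pieces replaced 1 domain at similar rates, with 2 or more peaks in 26.7%, 31.2% and 28.9% of domains. The widest remaining peak had a median of 5305 bp in RING1B WT, 3423 bp in Parental +OHT and 2870 bp in RING1B I53S cells, against 5583 bp before. Without chromosome 11 the median coverages were 92.6%, 57.3% and 34.0% over 2095 domains.

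The Hox clusters, which hold the homeotic genes that specify position along the body axis, showed the same shrinkage. The Hoxa cluster (chr6:52155590-52260880, 105 kb) was covered by peaks over 85.4% of its bases in Parental -OHT, 86.7% in RING1B WT, 34.6% in Parental +OHT and 47.7% in RING1B I53S cells. Hoxc (chr15:102921103-103036852) was covered over 67.6%, 76.5%, 24.5% and 52.9% in the same order. Hoxb (chr11:96194316-96368256), on the chromosome with an excess of peaks in every list, kept the most, at 82.5%, 84.4%, 56.5% and 65.3%. For Hoxd (chr2:74668310-74765142) the values were 84.0%, 86.7%, 46.8% and 46.6%. In 3 of the 4 clusters coverage was lower in Parental +OHT than in RING1B I53S cells, the reverse of the order over all broad domains. Peak numbers barely told the conditions apart in Hoxa, with 16 peaks in Parental -OHT, RING1B WT and RING1B I53S cells and 15 in Parental +OHT cells, but the widest of them measured 16.5 kb, 13.9 kb, 9.54 kb and 5.92 kb, respectively.

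**Figure D2:**
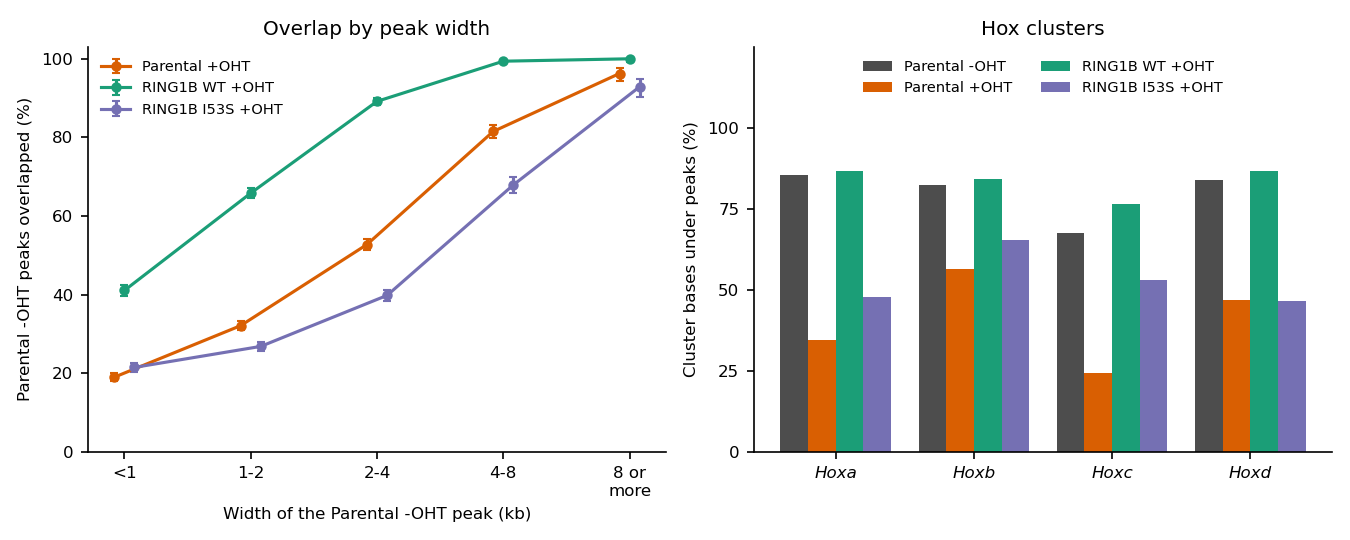
Left, share of Parental -OHT H3K27me3 peaks overlapped by a peak of each other library, by peak width, with 95% Wilson intervals; the share runs from 41.0% to 100% in RING1B WT, from 18.96% to 96.3% in Parental +OHT and from 21.4% to 92.9% in RING1B I53S cells. Right, share of the bases of each Hox cluster under peaks in each of the 4 libraries.

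Promoters carried more of the H3K27me3 peaks than their share of the genome, and least so in RING1B I53S cells. A promoter was taken as 2.5 kb to either side of an annotated start, which makes up 13.0% of the genome. Promoters were reached by 51.4% of peaks in Parental -OHT (interval 50.7 to 52.1%), 50.0% in Parental +OHT (49.1 to 50.8%), 47.8% in RING1B WT (47.1 to 48.4%) and 35.2% in RING1B I53S cells (34.5 to 35.8%). Intergenic peaks made up 26.1%, 28.9%, 29.8% and 37.5% in the same order, and intronic peaks 13.7%, 13.9%, 14.1% and 19.6%. Intergenic sequence makes up 51.3% of the genome. RING1B I53S cells differed from the other libraries among broad peaks too, with 60.4% of peaks of at least 4 kb at promoters against 78.3% in Parental -OHT, 79.7% in Parental +OHT and 76.8% in RING1B WT cells. Their peaks lay a median of 5.64 kb from the nearest start, against 3.13, 3.33 and 3.75 kb. Intergenic peaks of RING1B I53S cells were not farther out, at a median of 11.2 kb from a start against 14.1 kb in Parental -OHT cells.

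Peaks at promoters of Parental -OHT cells were found again more often than intergenic ones in RING1B WT (78.1% against 60.5%) and in Parental +OHT cells (52.7% against 28.6%). In RING1B I53S cells the gap was smaller, at 38.8% against 32.8%. Promoter peaks are wider, so the comparison was repeated at 2 to 4 kb. There, 61.9% of promoter peaks and 39.9% of intergenic peaks remained in Parental +OHT cells, and 40.6% (interval 38.7 to 42.4%) and 42.1% (38.9 to 45.5%) in RING1B I53S cells. At equal width, promoter peaks were thus retained more often than intergenic ones in Parental +OHT cells, whereas in RING1B I53S cells the intervals overlapped.

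Of the Parental -OHT peaks, 4920 were found in all 4 lists, 4703 were absent from both lists without active RING1B but present in RING1B WT cells, 2026 were absent from RING1B I53S cells alone, 952 from Parental +OHT cells alone and 4849 were listed in Parental -OHT cells only. Those found in all lists had a median width of 2972 bp and lay at promoters in 65.1%. The peaks absent without active RING1B had a median width of 1606 bp and lay at promoters in 48.5%. Peaks absent from RING1B I53S cells alone were the most promoter-bound, at 75.5% (interval 73.5 to 77.3%). The 952 peaks absent from Parental +OHT cells alone lay at promoters in 32.8%. On the other side, 1636 peaks of the RING1B I53S list overlapped a Parental +OHT peak but none of Parental -OHT or RING1B WT cells, and 6883 were listed in RING1B I53S cells only. Those 2 groups lay at promoters in 24.9% and 17.2% and between genes in 45.7% and 46.9%, closer to the make-up of the genome than any class of Parental -OHT peaks. The 6883 peaks were narrow, with a median of 880 bp, and low, with a median score of 11.7.

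CpG content followed the same division. Parental -OHT peaks had a median of 1.70 CpG per 100 bp, Parental +OHT peaks 1.29, RING1B WT peaks 1.42 and RING1B I53S peaks 0.977, against 0.826 in the genome. Peaks found in all lists had a median of 1.93, peaks absent without active RING1B 1.68 and peaks absent from RING1B I53S cells alone 2.504. New peaks shared by Parental +OHT and RING1B I53S cells had 0.824 and those of RING1B I53S cells alone 0.769, at or below the genome. Less than 1 CpG per 100 bp was held by 68.3% of the latter and 64.4% of the former, but by 16.9% of the peaks found in all lists. GC content differed less, with medians of 50.9% in peaks of all lists, 45.6% and 46.2% in the 2 new classes and 41.7% in the genome. Among peaks of 1 to 2 kb, those found in all lists had 1.30 CpG per 100 bp, fewer than those absent without active RING1B (1.65) or from RING1B I53S cells alone (2.21). The order of the first 2 classes thus turned among peaks of this width, while the new peaks stayed lowest, at 0.864 and 0.744. Chromosome 11 held 27.6% of the peaks found in all lists and 14.1% of those absent without active RING1B. Without it, their medians over all widths were 2.27 and 1.73, and the comparison at 1 to 2 kb was not repeated. In the central 300 bp both classes had a median of 1.33.

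**Figure D3:**
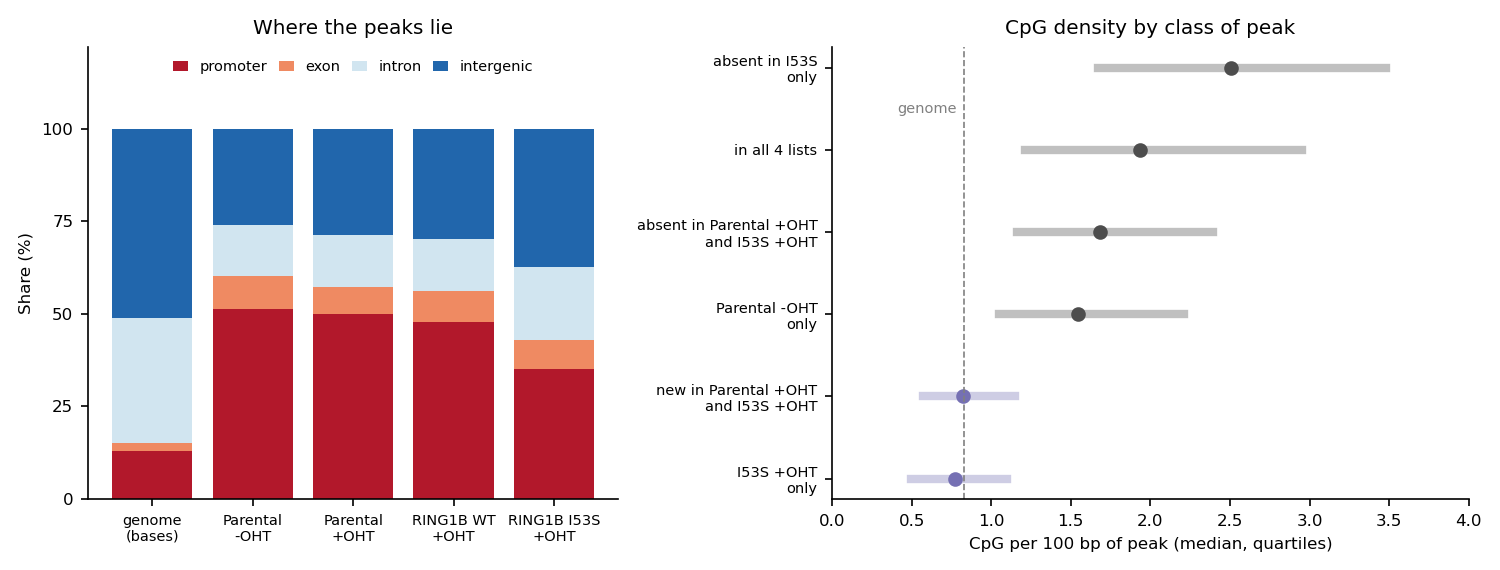
Left, share of H3K27me3 peaks at promoters (2.5 kb to either side of a start), exons, introns and between genes, beside the share of genome bases; promoters take 35.2% in RING1B I53S cells and 47.8 to 51.4% in the other libraries. Right, CpG per 100 bp by class of peak (points, medians; bars, quartiles), with the genome at 0.826 as a dashed line.

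H3K27me3 peaks of RING1B I53S cells coincided least often with PRC2 subunits and H2AK119ub1, whereas those of Parental +OHT cells were close to RING1B WT cells for SUZ12 and MTF2. SUZ12, a core PRC2 subunit, had a peak at 40.04% of H3K27me3 peaks in Parental -OHT, 28.1% in RING1B WT, 26.7% in Parental +OHT and 10.2% in RING1B I53S cells, in libraries of the same cells. Among peaks with a score of 20 or more in both lists, SUZ12 overlapped 66.9% in Parental +OHT and 64.9% in RING1B WT cells, so that their order turned. MTF2 overlapped 63.5% in Parental -OHT and 32.9% in Parental +OHT cells. It has 2 libraries in each of the other conditions, which gave 31.4% and 32.9% in RING1B WT cells but 9.59% (3091 MTF2 peaks) and 17.4% (7546 MTF2 peaks) in RING1B I53S cells. JARID2, the PRC2.2 subunit, overlapped 55.4% in Parental -OHT and 8.68% in Parental +OHT cells, 25.9% and 28.2% by 2 libraries in RING1B WT cells, and 4.32% (1080 JARID2 peaks) and 1.89% (446 JARID2 peaks) in RING1B I53S cells. For both antibodies, the 2 RING1B I53S libraries differed from each other and lay below those of RING1B WT cells. In the order Parental -OHT, RING1B WT, Parental +OHT and RING1B I53S, CBX7, a canonical PRC1 subunit that reads H3K27me3, overlapped 28.0%, 12.6%, 0.259% and 0.0846%. H2AK119ub1 overlapped 41.7%, 41.3%, 18.3% and 6.41%. RING1B itself overlapped 24.4%, 16.1%, 0.315% and 1.11%, and without chromosome 11 the share in Parental +OHT cells was 0.0449%. Each library has its own depth and threshold, and their part in these shares was not tested.

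Occupancy before OHT separated the classes. SUZ12 peaks of Parental -OHT cells overlapped 58.1% of the H3K27me3 peaks found in all lists, 39.3% of those absent without active RING1B and 73.7% of those absent from RING1B I53S cells alone (interval 71.8 to 75.6%). MTF2 overlapped 77.4%, 68.8% and 89.8% of these classes and H2AK119ub1 56.0%, 48.1% and 57.4%. The new peaks had almost none: SUZ12 overlapped 0.611% of the 1636 shared ones and 0.0436% of the 6883 in RING1B I53S cells only, and SUZ12 of RING1B I53S +OHT cells 1.16% and 0.0581%. At 2 to 4 kb, Parental -OHT peaks with SUZ12 were found again in 62.0% in Parental +OHT cells and those without in 39.4%, but in RING1B I53S cells in 37.3% (interval 35.4 to 39.1%) and 43.4% (41.1 to 45.7%). Without chromosome 11 the RING1B I53S shares were 36.2% and 36.3%, so that this inversion rests on chromosome 11.

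MTF2 KO derivatives of the same lines show how much of each list was found when MTF2 was also missing. They listed 7852 H3K27me3 peaks in Parental -OHT, 3382 in RING1B WT, 2730 in RING1B I53S and 332 in Parental +OHT cells. Of the peaks of MTF2-proficient cells, 29.0% were overlapped in the MTF2 KO line of the same condition in Parental -OHT, 12.7% in RING1B WT, 10.1% in RING1B I53S and 1.81% in Parental +OHT cells. Without chromosome 11 these shares were 24.7%, 10.9%, 5.99% and 0.853%. Covered length in MTF2-proficient cells was 3.19, 7.61, 9.53 and 71.2 times that in the MTF2 KO lines, in the same order. Each MTF2 KO list comes from 1 library of a separately isolated clone, with its own depth and threshold. Loss of MTF2 and differences between clones or libraries therefore cannot be told apart in these values. Peaks of at least 4 kb were again retained more often, in 75.4%, 52.99%, 40.5% and 8.61%. Chromosome 11 held 31.6 to 59.6% of the MTF2 KO peaks.

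Over protein-coding genes, a promoter peak was listed for 5844 of 21924 in Parental -OHT (26.7%), 4703 in Parental +OHT (21.5%), 5771 in RING1B WT (26.3%) and 3956 in RING1B I53S cells (18.0%). These shares are the background for the gene lists below. Of the 21924 genes, 2709 had a promoter peak in all lists and 1091 in Parental -OHT and RING1B WT cells only. A peak in Parental +OHT and RING1B I53S cells only was listed for 199, and 14570 had none in any list.

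Developmental regulators kept a promoter peak in nearly every case, over fewer bases. Of 39 Hox genes, 38 had a promoter peak in Parental -OHT, 36 in Parental +OHT, 39 in RING1B WT and 37 in RING1B I53S cells, with a median of 99.2%, 48.9%, 91.6% and 57.8% of promoter bases covered. Of 52 homeobox and paired genes of neural development and patterning, 52, 51, 52 and 49 had a peak, covering 91.6%, 71.6%, 93.0% and 60.1%. Among 36 GATA, T-box, forkhead, SOX and ZIC factors, which direct early lineages, the numbers were 35, 33, 35 and 30, and Sox3 and Sox11 had none without active RING1B. Secreted ligands of the WNT, BMP, FGF and hedgehog families lost most in RING1B I53S cells, with 33, 32, 33 and 26 of 35 genes and a median coverage of 90.3%, 59.6%, 85.5% and 34.3%. All these shares lie above the background of 18.0 to 26.7%.

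Germline genes behaved differently. Of 18 genes of meiosis and the piRNA pathway, 15 had a promoter peak in Parental -OHT and 10 in RING1B WT cells, but 4 in Parental +OHT and 3 in RING1B I53S cells. Mael, Stag3, Slc25a31, Hormad1, Smc1b and Majin had peaks in both lists with active RING1B and in neither without. Their promoters were less covered from the start, with a list median of 22.9% in Parental -OHT cells. Of 20 pluripotency genes 3, 1, 2 and 1 had a promoter peak in Parental -OHT, Parental +OHT, RING1B WT and RING1B I53S cells, and of 24 housekeeping genes 1, 2, 2 and 2, below the background in each list. Among 29 Polycomb subunit genes the numbers were 11, 10, 10 and 7, and among 26 imprinted genes 14, 9, 14 and 9.

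**Figure D4:**
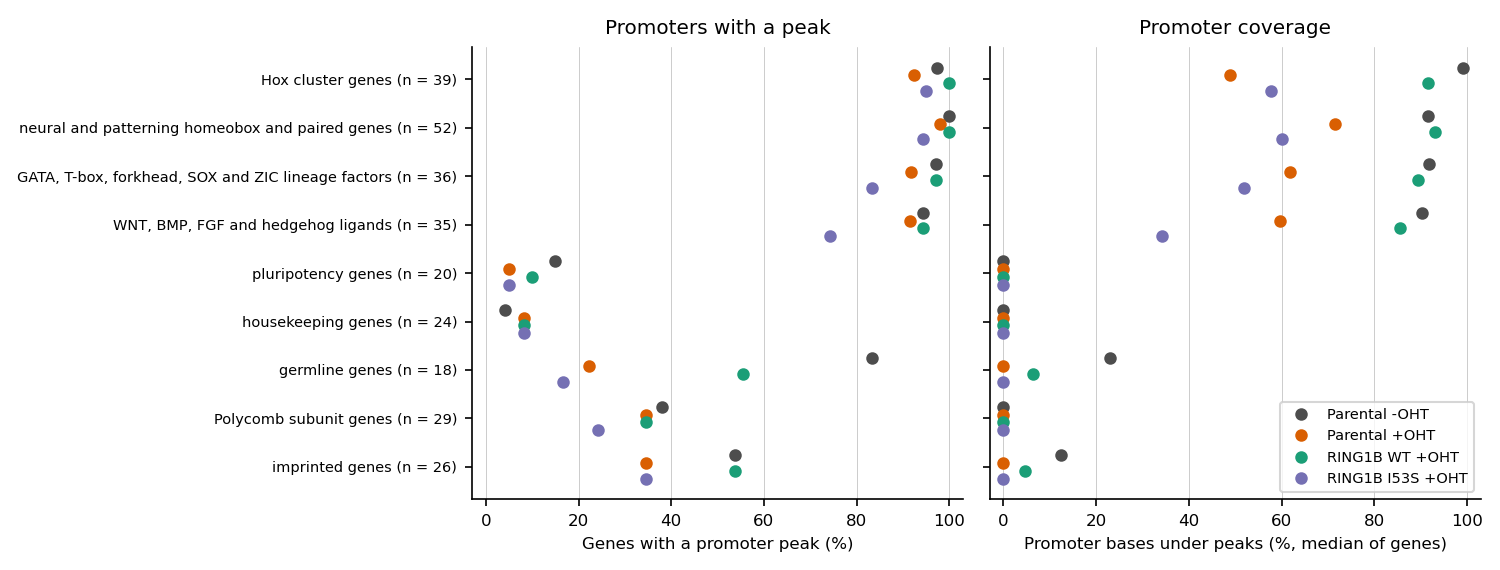
Left, share of the genes of each list with an H3K27me3 peak at the promoter; right, median share of promoter bases under peaks; 1 point per library. Hox promoters with a peak range from 36 to 39 of 39 genes, while their median coverage ranges from 48.9% to 99.2%.

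Among single loci, the widest peak of Parental -OHT cells spanned 64.4 kb over Hoxb6 (chr11:96266811-96331173, score 85.6), and 89.5% of it remained covered in Parental +OHT and 91.2% in RING1B I53S cells. The second spanned 36.2 kb over Pax2, a regulator of kidney and midbrain development (chr19:44731964-44768149), of which 82.0% and 85.6% remained. The third spanned 34.0 kb over Neurod2, a neuronal transcription factor (chr11:98310668-98344686), of which 98.4% and 94.6% remained. The Neurod2 peak had the highest score in the other lists, 97.6 in Parental +OHT, 112.6 in RING1B WT and 95.6 in RING1B I53S cells, above its 76.8 in Parental -OHT cells. The promoter of Prdm12 (gene at chr2:31640037-31655795), a neural PR-domain gene, was covered over 100% in all 4 lists, with scores of 38.1 in Parental -OHT, 46.7 in Parental +OHT, 41.9 in RING1B WT and 34.6 in RING1B I53S cells. These loci kept more than most: of the 507 Parental -OHT peaks of at least 8 kb, a median of 68.2% of the length remained covered in Parental +OHT and 56.7% in RING1B I53S cells. Scores went either way, and at the Hoxb6 promoter the top score was 85.6 in Parental -OHT, 71.2 in RING1B WT, 63.6 in Parental +OHT and 65.4 in RING1B I53S cells.

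Other high-scoring peaks were reduced to a part. The top score in Parental -OHT cells, 95.2, belonged to a 27.1-kb peak beside Cbx8, which encodes a CBX subunit of canonical PRC1 (chr11:119041212-119068303), of which 99.5% remained in RING1B WT, 65.2% in Parental +OHT and 62.6% in RING1B I53S cells. A 3.93-kb peak at Sfi1 (chr11:3133950-3137876, score 94.4) was covered over 98.8% in RING1B WT, 0% in Parental +OHT and 10.5% in RING1B I53S cells. The lists were used as deposited, without removing regions blacklisted by ENCODE, which the paper excluded from its heatmaps. Whether the Sfi1 locus is such a region was not checked. At the promoter of Wnt3 (gene at chr11:103774150-103817957), a WNT ligand, coverage stayed at 100% in Parental -OHT, Parental +OHT and RING1B WT cells and at 88.8% in RING1B I53S cells, while the top score went from 86.6 in Parental -OHT to 67.5 in RING1B WT, 46.8 in Parental +OHT and 24.7 in RING1B I53S cells.

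The 5 promoters with the highest Parental -OHT scores among those without a peak when RING1B was absent or inactive were at Gm11399, Git1, Gm11515, Tcf15 and AC124502.4. Gm11399 (chr11:3142048-3143363) lies within the Sfi1 gene, so the limit given for that locus holds for it too. At Tcf15 (chr2:152143561-152149097), a mesodermal basic helix-loop-helix factor, peaks covered 36.6% of the promoter in Parental -OHT (score 50.9) and 33.4% in RING1B WT cells (20.1). At Gm11515, a lincRNA gene (chr11:95223290-95225632), they covered 90.3% (63.2) and 81.7% (51.7). Gm11399 and AC124502.4 are annotated as antisense genes, and reads were counted without strand, so their RNA cannot be told apart from that of the opposite strand. The 5 highest among new promoters, Urm1, Sumf1, Gm12293, Gm40332 and Eri3, were covered over 1.47% to 60.2% in RING1B I53S and 1.16% to 25.3% in Parental +OHT cells. At Urm1 the peak overlapped only 1.16% and 1.47% of the promoter, so its score of 40.4 in Parental +OHT and 38.6 in RING1B I53S cells belongs mostly to sequence outside it.

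Expression of the same genes was taken from 12 RNA-seq libraries of the 3 lines, 2 with OHT and 2 with vehicle each, with total counts per library between 8140106 and 12743460. No source used here says that replicates came from separate cultures, so p-values measure the spread between these libraries. In bulk RNA, fewer expressing cells and less RNA per cell cannot be told apart. Rnf2, which encodes RING1B, was at 198 and 257 CPM (counts scaled to library size) in Parental -OHT and 144 and 167 CPM in Parental +OHT libraries. Reads of undeleted exons and of the transgenes count as well, so these levels do not measure the deletion. The 8 ESC markers summed to 5234 to 6369 CPM in Parental -OHT and 3244 to 3328 CPM in Parental +OHT cells. In RING1B I53S cells they summed to 5215 to 6312 CPM without and 3454 to 3525 CPM with OHT. In RING1B WT cells the sums were 5584 to 6798 CPM without and 5289 to 5472 CPM with OHT. Summed trophoblast markers went from 165 to 196 CPM in Parental -OHT to 436 to 443 in Parental +OHT, and summed primitive endoderm markers from 30.9 to 31.2 to between 75.6 and 85.6 CPM. In RING1B I53S cells, trophoblast markers summed to 173 to 212 CPM without and 326 to 363 CPM with OHT. Fibroblast markers summed to 23.5 to 24.0 CPM in Parental -OHT and 66.2 to 68.8 CPM in Parental +OHT cells. Of 8 markers each, 6 trophoblast, 6 primitive endoderm and 4 fibroblast markers had a promoter peak in Parental -OHT cells, against 26.7% of protein-coding genes. Fibroblast markers at 0 CPM numbered 3 and 4 in the Parental +OHT libraries. In RING1B WT cells, trophoblast markers summed to 160 to 171 CPM without and 219 to 240 CPM with OHT. Such sums cannot tell cells of these types from expression of these genes in ESCs. The part of such cells in the expression results was not tested.

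Genes with a promoter peak were more often higher after OHT than genes without one. Over all 18154 genes tested, 2748 (15.1%) were higher and 333 (1.83%) lower with OHT in Parental, 2323 (12.8%) and 188 (1.04%) in RING1B I53S and 244 (1.34%) and 7 (0.0386%) in RING1B WT cells, where a call needed a log2 change of 1.5 or more in size and an FDR under 0.05 (edgeR quasi-likelihood test). The total of 251 in RING1B WT cells rested on single libraries, with 25 calls left when -OHT replicate 2 was omitted and 30 when +OHT replicate 2 was. Of the 2709 protein-coding genes with a promoter peak in all 4 lists, 2236 were tested, and 1124 were higher in Parental, 1064 in RING1B I53S and 114 in RING1B WT cells. Of the 1091 whose peak was absent without active RING1B, 938 were tested and 355, 298 and 30 were higher. Genes with new peaks moved little, with 4, 4 and 0 higher of 199 (144 tested), and of 14570 genes without a peak (9069 tested) 393, 283 and 34 were higher. Median log2 fold changes in Parental cells were 1.69, 1.18, -0.23 and -0.18 in these 4 classes and 0.07 over all protein-coding genes tested. In RING1B I53S cells they were 1.57, 1.01, -0.23 and -0.16, and in RING1B WT cells 0.57, 0.47, -0.11 and -0.08. With genes that had a group at 0 counted at their lower bound, from a floor of 3 counts over the group, the medians of genes with a peak in all 4 lists were 1.69, 1.56 and 0.55 in Parental, RING1B I53S and RING1B WT cells. The classes also differed in level before OHT. In Parental -OHT cells, tested genes with a peak in all lists had a median of 2.05 CPM and those whose peak was absent without active RING1B 4.52 CPM. Genes with new peaks were at 31.1 CPM and those without a peak at 37.9 CPM. The part of starting level in these shares and fold changes was not tested.

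Genes left without a promoter peak were called higher about as often as, or less often than, genes that kept most of it. Among the 1788 protein-coding genes with over 50% of the promoter covered in Parental -OHT cells, the share called higher in Parental cells was 53.7% of the 214 genes left without a promoter peak, 57.5% of the 447 that kept up to 50% of the covered bases and 53.6% of the 1127 that kept more. In RING1B I53S cells the shares were 43.8% of 504, 55.6% of 594 and 51.4% of 690. Filtering on low counts left 179, 388 and 826 of these genes tested in Parental and 411, 487 and 495 in RING1B I53S cells. Of the genes tested, the share called higher was 64.2%, 66.2% and 73.1% in Parental and 53.8%, 67.8% and 71.7% in RING1B I53S cells, lowest where no peak was left and highest where most of it was. Median log2 fold changes of those tested were 2.19, 2.20 and 2.87 in Parental and 1.75, 2.27 and 2.79 in RING1B I53S cells. The groups differ in how many genes the filter removed.

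**Figure D5:**
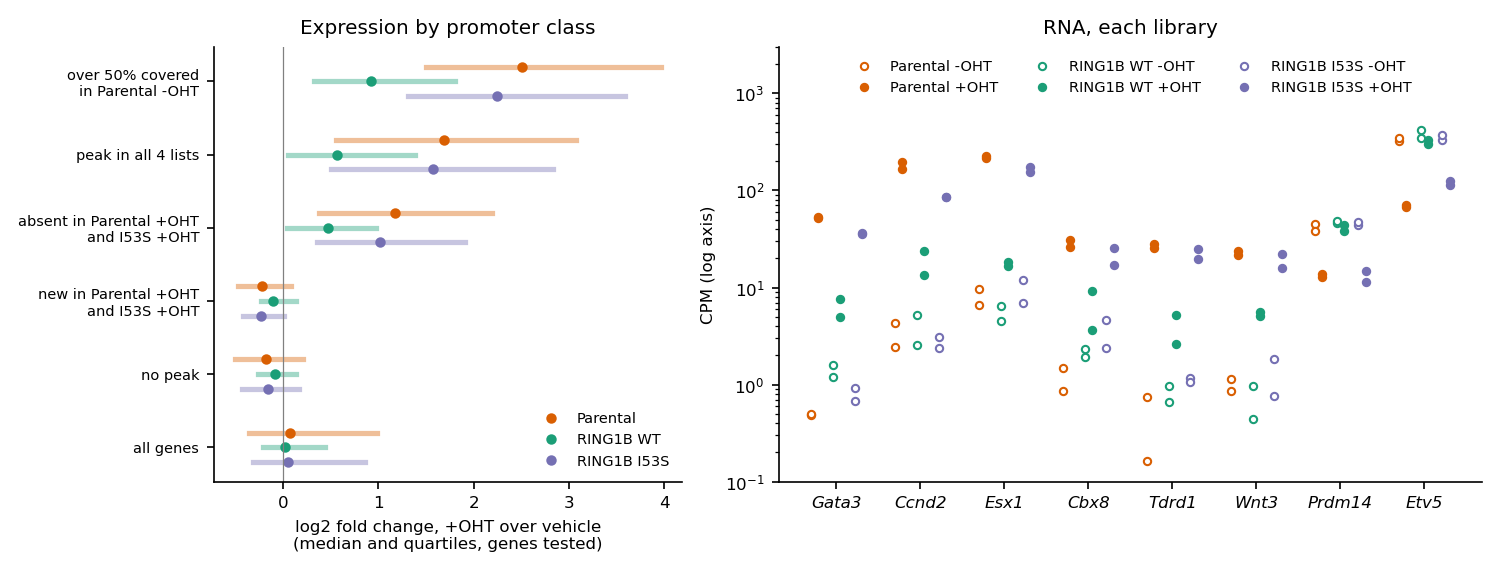
Left, log2 fold change with OHT over vehicle by promoter class for protein-coding genes tested (points, medians; bars, quartiles); the median of genes with a peak in all 4 lists is 1.69 in Parental, 1.57 in RING1B I53S and 0.57 in RING1B WT cells. Right, CPM of 8 named genes in each of the 12 libraries on a log axis (open, vehicle; filled, OHT).

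The developmental lists held most of their members among the higher genes. Of 39 Hox genes (29 tested), 26 were higher in Parental, 25 in RING1B I53S and 5 in RING1B WT cells. Of 52 neural and patterning homeobox and paired genes (48 tested) the numbers were 39, 39 and 6, of 36 GATA, T-box, forkhead, SOX and ZIC factors (31 tested) 26, 25 and 2, and of 35 ligands (31 tested) 23, 24 and 2. With genes at 0 counted at their lower bound, median log2 fold changes in Parental cells were 3.88, 4.14, 3.48 and 3.34 (4.93, 4.93, 4.93 and 3.34 as fitted). Of 18 germline genes (17 tested) 13, 11 and 6 were higher, with a median of 2.35 in Parental cells. No housekeeping gene of 24 was called in any line, with a median of -0.29 in Parental cells, and of 20 pluripotency genes 6 were lower and 1 higher (Dppa3, named after its values were seen) in Parental cells and 4 lower in RING1B I53S cells. Of 29 Polycomb genes (29 tested) 5 were higher in Parental, 4 in RING1B I53S and none in RING1B WT cells, and of 26 imprinted genes (24 tested) 7, 7 and 1. Over all genes tested, the shares called higher were 15.1%, 12.8% and 1.34% in the same order. Polycomb genes lay near these shares, at 17.2%, 13.8% and 0% of those tested. Imprinted genes were at 29.2%, 29.2% and 4.17%.

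Gata3, a trophoblast and lineage regulator (chr2:9857078-9890034), kept a promoter peak in all 4 lists, covering 95.5% of the promoter in Parental -OHT, 89.6% in RING1B WT, 61.3% in Parental +OHT and 51.8% in RING1B I53S cells. Its RNA was at 0.489 and 0.494 CPM in Parental -OHT and 52.9 and 51.8 CPM in Parental +OHT libraries, at 0.927 and 0.672 against 35.6 and 36.8 CPM in RING1B I53S, and at 1.60 and 1.21 against 4.93 and 7.60 CPM in RING1B WT cells. The groups did not overlap in any line. Log2 fold changes were 6.70 ± 0.36 (SE, edgeR adjusted p = 7.02e-10), 5.46 ± 0.33 (adjusted p = 6.94e-09) and 2.13 ± 0.34 (adjusted p = 0.00277). The call in RING1B WT cells was lost without -OHT replicate 2 (edgeR adjusted p = 0.0696) or +OHT replicate 2 (adjusted p = 0.0618). Ccnd2, which encodes cyclin D2 (chr6:127125162-127152193), also kept a peak in every list, over 67.8%, 73.6%, 26.99% and 36.8% of the promoter in Parental -OHT, RING1B WT, Parental +OHT and RING1B I53S cells. It went from 2.44 and 4.33 to 195 and 166 CPM in Parental, from 2.39 and 3.07 to 86.3 and 86.5 CPM in RING1B I53S and from 2.57 and 5.27 to 13.4 and 23.7 CPM in RING1B WT cells. The corresponding log2 fold changes were 5.78 ± 0.34 (edgeR adjusted p = 1.12e-09), 4.99 ± 0.33 (adjusted p = 9.17e-09) and 2.23 ± 0.33 (adjusted p = 0.00193).

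Wnt5a, a non-canonical WNT ligand (chr14:28504750-28527448), was covered over 100% of its promoter in both Parental lists, 96.8% in RING1B WT and 74.3% in RING1B I53S cells. Its RNA rose from 0.163 and 0.494 to 8.97 and 10.5 CPM in Parental (log2 4.96 ± 0.53, edgeR adjusted p = 1.16e-06) and from 1.08 and 0.576 to 9.23 and 9.56 CPM in RING1B I53S cells (3.46 ± 0.45, adjusted p = 1.46e-05). In RING1B WT cells it was at 0.856 and 0.439 against 1.71 and 1.99 CPM and was not called (edgeR adjusted p = 0.166). Wnt3 rose from 1.14 and 0.865 to 21.9 and 24.0 CPM in Parental (4.47 ± 0.40, edgeR adjusted p = 1.59e-07) and from 1.85 and 0.767 to 15.9 and 22.4 CPM in RING1B I53S cells (3.82 ± 0.38, adjusted p = 9.79e-07). Wnt3 was also higher in RING1B WT cells, from 0.963 and 0.439 to 5.03 and 5.60 CPM (2.89 ± 0.46, edgeR adjusted p = 0.00277, and 0.0710 without -OHT replicate 2), and this change was not shown to differ from that in Parental cells (edgeR adjusted p = 0.279). Promoter coverage of both ligands was 74.3% or more in every list. Pax6, an eye and neural regulator (chr2:105668900-105697364), kept 36.4% in Parental +OHT and 17.3% in RING1B I53S cells of the promoter, from 79.7% in Parental -OHT cells. It rose from 0.978 and 0.618 to 10.4 and 7.70 CPM in Parental (3.45 ± 0.56, edgeR adjusted p = 9.06e-05) and from 1.78 and 0.480 to 5.92 and 7.75 CPM in RING1B I53S cells (2.54 ± 0.52, adjusted p = 0.00117). Hoxb6, at the widest domain, was at 0.0815 and 0 CPM in Parental -OHT and 5.72 and 4.48 CPM in Parental +OHT libraries (edgeR adjusted p = 0.000158), with its promoter covered over 100% in all 4 lists. Neurod2, whose peak had the highest score in 3 lists, stayed at or below 0.288 CPM in all 12 libraries, and Prdm12 at or below 0.401 CPM. Neither was tested.

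Tdrd1, a Tudor-domain gene of the piRNA pathway (chr19:56826209-56870012), was covered over 55.3% of its promoter in Parental -OHT, 52.3% in RING1B WT, 26.7% in Parental +OHT and 17.6% in RING1B I53S cells. It rose from 0.163 and 0.742 to 27.8 and 25.3 CPM in Parental (log2 6.01 ± 0.48, edgeR adjusted p = 3.71e-08) and from 1.16 and 1.06 to 19.8 and 25.1 CPM in RING1B I53S cells (4.32 ± 0.40, adjusted p = 5.27e-07). In RING1B WT cells it rose from 0.963 and 0.658 to 2.62 and 5.23 CPM (2.24 ± 0.48, edgeR adjusted p = 0.0176), a call lost without -OHT replicate 2 (adjusted p = 0.203) or +OHT replicate 2 (adjusted p = 0.292). Cbx8 rose from 1.47 and 0.865 to 26.2 and 31.1 CPM in Parental (4.55 ± 0.45, edgeR adjusted p = 4.21e-07) and from 4.64 and 2.40 to 17.0 and 25.4 CPM in RING1B I53S cells (2.57 ± 0.39, adjusted p = 6.68e-05), with 88.6% and 85.0% of its promoter still covered. Igf2, an imprinted growth factor gene (chr7:142650766-142666816), was covered over 83.2% in Parental -OHT and 43.8% in Parental +OHT cells and was at 0.0815 and 0 against 4.27 and 4.39 CPM (edgeR adjusted p = 6.38e-05). Esx1, a placental homeobox gene on the X chromosome (chrX:137115397-137122083), had a promoter peak in Parental -OHT cells only, with a score of 10.5, just over the minimum. It rose from 9.61 and 6.55 to 226 and 215 CPM in Parental (4.75 ± 0.27, edgeR adjusted p = 7.02e-10) and from 11.9 and 7.003 to 156 and 175 CPM in RING1B I53S cells (4.12 ± 0.26, adjusted p = 7.72e-09). In RING1B WT cells Esx1 rose from 6.42 and 4.50 to 16.5 and 18.4 CPM (1.67 ± 0.27, edgeR adjusted p = 0.00277), a call lost without -OHT replicate 2 (adjusted p = 0.0837) or +OHT replicate 2 (adjusted p = 0.0572).

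A few genes with a promoter peak were lower. Etv5, an FGF-responsive ETS factor (chr16:22381309-22439719), had a peak over 15.7% of its promoter in Parental -OHT and 11.4% in RING1B WT cells and none without active RING1B. Its RNA fell from 324 and 347 to 70.9 and 67.1 CPM in Parental cells (log2 -2.28 ± 0.18, edgeR adjusted p = 2.49e-08) and from 332 and 370 to 115 and 126 CPM in RING1B I53S cells (-1.55 ± 0.17, adjusted p = 2.86e-06). The RING1B I53S change came to -1.48 without either -OHT replicate 2 or +OHT replicate 1, under the fold threshold. Prdm14, a pluripotency regulator (chr1:13113457-13127163), had a promoter peak in Parental -OHT cells only and fell from 45.1 and 38.0 to 12.7 and 13.8 CPM in Parental (-1.65 ± 0.21, edgeR adjusted p = 7.77e-06) and from 43.6 and 47.3 to 11.4 and 14.6 CPM in RING1B I53S cells (-1.80 ± 0.21, adjusted p = 5.48e-06). In RING1B WT cells, whose list also lacked this peak, Prdm14 was at 46.1 and 48.05 against 44.1 and 38.5 CPM (edgeR adjusted p = 0.707). Zdbf2, an imprinted gene (chr1:63273265-63314576), likewise had its peak in Parental -OHT cells only and fell from 91.2 and 74.4 to 22.7 and 18.7 CPM in Parental cells (-1.998 ± 0.25, edgeR adjusted p = 6.18e-06). In Parental cells, the RNA of these 3 genes was lower while their promoter peak was no longer listed. Tubb3, a neuronal tubulin gene (chr8:123411424-123422015), was covered over 32.3% in Parental -OHT and 45.3% in Parental +OHT cells and fell from 90.3 and 63.0 to 25.3 and 19.8 CPM (-1.77 ± 0.22, edgeR adjusted p = 4.90e-06).

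None of the tested genes among the 5 strongest lost and 5 strongest new promoters was called in Parental cells. Tcf15 was at 1.06 and 1.24 against 2.05 and 1.56 CPM in Parental cells (edgeR adjusted p = 0.423) and Git1 at 53.9 and 46.6 against 49.2 and 41.7 CPM (adjusted p = 0.643). Urm1, with a new peak at the promoter edge, was at 19.7 and 23.5 against 13.7 and 16.9 CPM in Parental cells (edgeR adjusted p = 0.126) and at 21.4 and 26.7 against 13.0 and 15.4 CPM in RING1B I53S cells, where its adjusted p was 0.0266 but its log2 change of -0.75 stayed under the threshold. Eri3 was at 80.1 and 72.3 against 75.1 and 74.7 CPM in Parental cells (edgeR adjusted p = 0.931).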

How the data were processed

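ChIP was carried out on formaldehyde-fixed cells with Drosophila S2 chromatin as spike-in. The authors aligned reads with Bowtie 1.2.2 to mm10 (GRCm38) and dm6 and called peaks per library with MACS2 2.1.1 (versions from the submitters' processing notes); the deposited score is a -log10 p-value. For RNA-seq, the deposited values are raw counts per gene name from featureCounts, unstranded, after STAR 2.7 alignment.

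Peaks were compared by overlap of at least 1 bp, with Python 3.11.15, pandas 2.3.3, numpy 2.4.6 and scipy 1.17.1. Promoters were 2.5 kb to either side of 132758 GENCODE starts. Counts of 12 libraries in 6 groups were tested with edgeR 4.0.16 (R 4.3.3) by TMM, filterByExpr, glmQLFit and glmQLFTest, with Benjamini-Hochberg adjustment, on 18154 of 55341 names. DESeq2 1.42.0 was an alternative. On simulated data for OHT in Parental cells (17384 genes), 79 of 96 genes changed by a log2 of 2 and 86 of 97 changed by 3 were recovered, with 3 unchanged genes called. ChIP conditions have 1 library each, so they were not tested.

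Named genes were Prdm12, the 2 most covered promoters of each list, genes nearest the 3 widest and 3 highest-scoring peaks per library, the 5 top-scoring lost and 5 top-scoring new promoters, and among genes with a Parental -OHT promoter peak, the 3 higher and 3 lower with the smallest adjusted p for OHT in Parental cells. The members and lists were chosen with earlier results of these data known. The tables of other samples and 1 sample without a clear condition were not used here. One named gene is not reported here.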

Additional observations from a re-analysis of the deposited data

Results flagged for a closer look

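Of the named genes, 10 had an OHT effect in RING1B WT cells that differed from that in Parental cells by the edgeR interaction test (2 libraries per group, Benjamini-Hochberg over all genes tested). The difference is the log2 fold change in RING1B WT minus that in Parental cells. Gata3, Ccnd2, Esx1 and Etv5 were named for their small adjusted p in Parental cells, so their differences partly follow from that choice. The share of all tested genes with such a difference is not given here. No named gene had a difference between RING1B I53S and Parental cells at an adjusted p under 0.05, which does not show that the effects are equal. Among genes that rose in Parental cells, it was -4.57 for Gata3 (edgeR adjusted p = 0.000107), -3.77 for Tdrd1 (adjusted p = 0.0115), -3.61 for Nptx1 (adjusted p = 0.0297), -3.54 for Ccnd2 (adjusted p = 0.000309), -3.475 for Wnt5a (adjusted p = 0.0316), -3.08 for Esx1 (adjusted p = 0.000113) and -2.98 for Cbx8 (adjusted p = 0.0190). Among genes that were lower in Parental cells, it was 1.99 for Etv5 (edgeR adjusted p = 0.000113), 1.46 for Prdm14 (adjusted p = 0.00998) and 0.985 for Esrrb (adjusted p = 0.0308).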

How the results depend on the processing

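Peak depth is unknown, each condition has 1 library and each list its own threshold, so shares move with the settings. The share of Parental -OHT peaks found in RING1B WT, Parental +OHT and RING1B I53S cells was 63.4%, 31.2% and 24.9% when at least 50.0% of a peak had to be covered, 74.3%, 37.4% and 23.1% at a score of 20 or more, 67.9%, 46.5% and 33.7% with equal numbers of top-scoring peaks (14283), and 67.7%, 38.5% and 31.2% without chromosome 11. The order was the same in each. The share at promoters in Parental -OHT, Parental +OHT, RING1B WT and RING1B I53S cells was 42.0%, 36.8%, 37.0% and 22.4% with promoters of 1 kb, 46.1%, 43.0%, 41.6% and 27.9% by peak centre, 76.9%, 80.9%, 75.6% and 62.1% at a score of 20 or more, 54.3%, 53.7%, 50.9% and 36.6% without chromosome 11, and 43.8%, 43.2%, 40.1% and 27.8% with protein-coding starts only. With equal numbers it was 56.5%, 53.9% and 38.7% in Parental -OHT, RING1B WT and RING1B I53S cells. RING1B I53S cells were lowest in each of these. Leaving out chromosome 11 and using protein-coding starts were chosen after seeing the data. At a score of 20 or more, 4978, 2521, 4887 and 2388 peaks and 3299, 1840, 3176 and 1247 protein-coding genes remained.

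For OHT against vehicle in Parental, RING1B I53S and RING1B WT cells, the FDR alone called 6228, 4856 and 402 genes. DESeq2 called 2843, 2267 and 293. Without a filter on low counts the numbers were 3384, 2738 and 483. Leaving out 1 library gave 2452 to 2801 in Parental, 1697 to 2464 in RING1B I53S and 25 to 261 in RING1B WT cells, the lowest without RING1B WT -OHT replicate 2 (25) or +OHT replicate 2 (30). A replicate block gave 3176, 2606 and 291. The labels share only numbers between groups. Deviations of same-numbered libraries correlated at 0.171, 0.220 and 0.104 within these lines, and at -0.019 to 0.56 over all pairs of the 6 groups. The block was not used further. Across the 114 values of named genes, 766 alternatives left the call, or its absence, unchanged. A call was lost in 21 (20 by leaving out 1 library) and gained in 9, and 0 reversed the direction of a called change. Direction was not compared for values that were not called.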
